A study of Rattus norvegicus with 2 samples.

Results

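Sox2, Sox4, Sox9, Sox10, Sox11, Nfia, Nfib, Nfix, Olig1 and Olig2 are transcription factors that steer neural progenitors towards glial or neuronal fates. Their transcripts were followed in cultured rat astrocytes that the study design describes as with or without calcium signalling. No measure of calcium is among these data. The 10 genes came from a list chosen with earlier results of these data known. Every probe set that carried only 1 of these symbols in the array's annotation was read. This gave 24 probe sets for 9 genes, among 20832 probe sets and 14218 genes with a single symbol on the array. Sox9 had no such probe set and has no value here. The signals of Sox2, Nfia and Nfix were lower in the astrocytes described as lacking calcium signalling, by 1.33- to 1.52-fold at their brightest probe sets. Those of Sox4 and Nfib were close to equal, and Sox10, Olig1 and Olig2 gave signals too low to compare.

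Both cultures were astrocytes, glia that support neurons and synapses, labelled as coming from the hippocampus of Sprague-Dawley rat embryos at embryonic day 18 with a normal genotype. The control culture carried a vector that expresses red fluorescent protein (RFP) behind an internal ribosome entry site (IRES2). The 5ppase culture carried the same kind of vector with 5ppase placed ahead of that site, and the study design describes calcium signalling as active in the control and absent with 5ppase. The labels do not spell out 5ppase, which is a usual short form of inositol polyphosphate 5-phosphatase, whose activity removes inositol trisphosphate, the signal for calcium release from internal stores. They do not say what share of cells carried a vector, nor how many embryos were pooled.

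Each culture was read on 1 single-colour Affymetrix array, so every difference below compares 2 arrays, has no replicate check and carries no p-value. Signals are MAS5 intensities in arbitrary units, which are not comparable between probe sets, and a log2 ratio is always 5ppase over control. A gene was compared where its signal lay above a floor of 62.0 (the 40th percentile of both arrays pooled) on both arrays and reached 208 (the 60th percentile) on at least 1, which 8261 genes did. The array medians were 107 and 109. Ratios of the 2 brightest compared probe sets of a gene differed with an SD of 0.26 per ratio over 1883 genes, a measure of probe noise that leaves out differences between cultures. Because the cultures are bulk samples, fewer cells of a type and less RNA per cell cannot be told apart.

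Of 10 astrocyte markers, Gfap, Slc1a3, S100b, Aldoc, Atp1b2 and Fabp7 lay above the floor on both arrays, Aqp4 and Aldh1l1 on the control array only, and the glutamate transporter Slc1a2 and the connexin Gjb6 on neither. The summed signal of the 10 was 32618 in control and 15520 in 5ppase. Without Gfap, as computed after the values were seen, it was 15093 and 8112. Of the 6 above the floor on both arrays, 5 were lower in 5ppase and S100b was not (3483 and 3611). The 8 oligodendrocyte lineage markers on the array summed to 2589 and 2262, with the myelin genes Mag, Mog and Mobp under the floor on both arrays. Markers of fibroblasts and meninges summed to 89138 and 85103 (8 markers, Dcn and Lum under the floor on both). Those of Schwann and neural crest cells summed to 9744 and 8047 (5 markers, Ngfr and Foxd3 under it). Most of the latter sum was Pmp22: without it, as computed after the values were seen, the sum was 733 and 542. Neuron markers summed to 5656 and 12670, with 5 of 8 (Dcx, Rbfox3, Snap25, Syt1 and Nefl) under the floor on both arrays. The higher sum in 5ppase came from Stmn2: without it, as computed after the values were seen, the neuron sum was 1890 and 1605. Microglial (167 and 267), chondrocyte (254 and 227) and endothelial (120 and 140) sums were low. The part of these cell types in the ratios below was not tested.

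The Sox proteins bind DNA through an HMG box. Sox2 keeps progenitors undifferentiated and stays on in many astrocytes, Sox9 starts the switch from making neurons to making glia, Sox10 drives oligodendrocyte and Schwann cell differentiation, and the related pair Sox4 and Sox11 promotes neuronal differentiation. The nuclear factor I proteins Nfia, Nfib and Nfix bind DNA as dimers. In mouse and chick spinal cord Nfia acts after and together with Sox9 at the start of gliogenesis and on astrocyte genes such as Gfap, and Nfib and Nfix take part in glial differentiation in the mouse forebrain. Olig1 and Olig2 are basic helix-loop-helix factors needed for the oligodendrocyte lineage, and Olig2 is also present in some astrocyte progenitors.

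Routes by which calcium acts on transcription include the calcineurin-dependent NFAT proteins, which recognise the letters GGAAA, and CREB, whose site holds TGACG. The annotated promoters (250 bases before to 50 after the gene start, RefSeq, GRCr8) of Sox2 and Nfia are printed because these 2 genes had the lowest log2 ratios, and that of Nfix for comparison. Capitals mark GGAAA on either strand.
Sox2 promoter, chr2:119464881-119465180, + strand: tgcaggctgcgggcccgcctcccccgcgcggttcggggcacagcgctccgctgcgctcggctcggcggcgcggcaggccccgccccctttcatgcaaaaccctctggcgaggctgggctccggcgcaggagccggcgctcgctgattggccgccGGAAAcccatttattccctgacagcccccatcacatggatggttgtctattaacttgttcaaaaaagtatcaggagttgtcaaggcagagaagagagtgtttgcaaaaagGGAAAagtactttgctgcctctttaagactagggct
Nfia promoter, chr5:117557030-117557329, + strand: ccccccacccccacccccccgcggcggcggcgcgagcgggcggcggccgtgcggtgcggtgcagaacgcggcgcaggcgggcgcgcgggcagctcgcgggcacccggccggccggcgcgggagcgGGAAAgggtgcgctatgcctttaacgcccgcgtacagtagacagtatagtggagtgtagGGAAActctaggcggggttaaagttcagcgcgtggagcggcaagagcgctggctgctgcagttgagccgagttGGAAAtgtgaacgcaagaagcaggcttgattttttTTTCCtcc
Nfix promoter, chr19:40260089-40260388, + strand: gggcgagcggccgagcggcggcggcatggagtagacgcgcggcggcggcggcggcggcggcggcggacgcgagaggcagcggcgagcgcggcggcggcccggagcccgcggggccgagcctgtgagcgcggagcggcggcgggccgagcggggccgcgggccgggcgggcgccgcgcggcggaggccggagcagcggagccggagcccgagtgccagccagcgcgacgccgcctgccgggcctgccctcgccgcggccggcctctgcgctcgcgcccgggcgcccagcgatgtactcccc
GGAAA occurred 2 times in the Sox2 window, 4 times in the Nfia window and 0 times in those of Nfix and Nfib. Of 33469 rat promoters of this length, 62.7% hold it at least 1 time, and the share with several matches was not counted. TGACG was in none of these 4 windows (21.2% of promoters hold it), nor were the NFI half-site TTGGCA (14.0%) or the Sox elements ACAATG (13.2%) and ACAAAG (18.8%), each searched on both strands. Of the other members with a promoter in the table, Olig2 held GGAAA 1 time and TGACG 1 time and Sox11 held 0 of either, and neither held the NFI or Sox letters. No 2 motifs overlapped in the Sox2, Nfia, Nfib and Nfix windows, since only GGAAA was found. A match describes letters in this window only and is not evidence of binding. The 3 windows were rich in G and C, at 60.7% for Sox2, 68% for Nfia and 86% for Nfix.

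**Figure D1:**
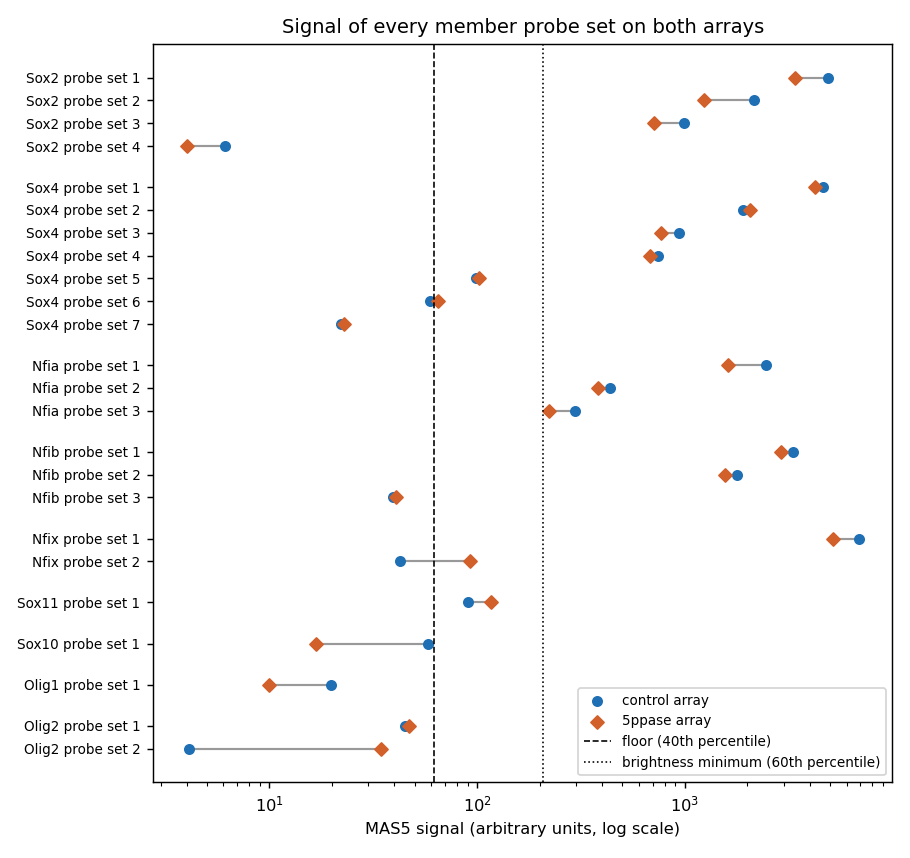
MAS5 signal (arbitrary units, log scale) of each of the 24 member probe sets on the control array (circles) and the 5ppase array (diamonds), with the floor at 62.0 and the brightness minimum at 208 as vertical lines. The bright probe sets of Sox2, Nfia, Nfib and Nfix have the control signal to the right, and Sox10, Olig1 and Olig2 lie left of the floor on both arrays.

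Sox2 had 4 probe sets, of which 3 were compared, and all 3 were lower in the 5ppase array. The brightest, 1379942_at, gave 4863 in control and 3377 in 5ppase, a log2 ratio of -0.53 or 30.6% less signal. Probe set 1381874_at gave 2163 and 1231 (log2 ratio -0.81, or 1.76-fold lower) and 1375153_at gave 991 and 711 (-0.48). The 3 ratios had a mean of -0.61 ± 0.18 (SD over 3 probe sets of 1 gene on the same 2 arrays, which are not replicates), and each was larger in size than the probe noise of 0.26. At its brightest probe set, 7.0% of all compared genes had a ratio as low or lower. The last probe set, 1389826_at, lay under the floor on both arrays (6.1 and 4.0).

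Sox4, read by 7 probe sets, was nearly equal on both arrays. Its brightest probe set, 1383137_at, gave 4601 and 4224 (log2 ratio -0.12), and 35.9% of compared genes had a ratio as low or lower. Of the other 3 compared probe sets, 1373860_at was slightly higher in 5ppase (1896 and 2050, 0.11), while 1384000_at (937 and 764, -0.29) and 1375123_at (740 and 679, -0.12) were lower. Apart from 1384000_at the ratios were smaller than the probe noise, and the probe sets did not share a sign. The 3 dim ones gave 98.6 and 102.6, 59.6 and 64.7, and 22.2 and 22.9. Sox11, the partner of Sox4, had 1 probe set (1387275_at) above the floor on both arrays but under the brightness minimum, at 90.7 in control and 116.3 in 5ppase.

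Sox10 had 1 probe set, 1368439_at, which gave 58.1 in control and 16.7 in 5ppase. Both values lay under the floor, so no fold is given. The oligodendrocyte factor Olig1 (1387200_at) gave 19.9 and 10. Olig2 gave 44.8 and 47.1 at 1398212_at and 4.10 and 34.4 at 1379593_at. All 4 probe sets of these 3 genes were therefore under the floor on both arrays. The floor is a percentile of signal and not a detection call, so these values do not show that the genes were silent.

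The brightest probe set of each of the 3 NFI genes was lower in the 5ppase array, Nfia most. The Nfib difference was smaller than the probe noise, and Nfix had only 1 compared probe set. Nfia gave 2454 in control and 1612 in 5ppase at 1369679_a_at, a log2 ratio of -0.61 or 34.3% less signal. This was the only member ratio past 1.5-fold at a gene's brightest probe set, and 4.96% of compared genes were as low or lower. Its other probe sets gave 296 and 222 (1370724_a_at, -0.41) and 438 and 380 (1369678_a_at, -0.20). All 3 were lower in 5ppase with a mean of -0.41 ± 0.20 (SD over 3 probe sets), but the last differed by less than the probe noise. The order of Nfia and Sox2 depended on the probe sets used. Sox2 was the lower of the pair with the mean of probe sets (-0.45, Nfia -0.41) and with the second brightest (-0.81, Nfia -0.20).

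Nfix gave 6878 in control and 5181 in 5ppase at 1370946_at (log2 ratio -0.41), with 11.5% of compared genes as low or lower. Its second probe set, 1381213_at, went the other way at low signal, with 42.6 in control, under the floor, and 92.9 in 5ppase. The direction of Nfix therefore rests on 1 probe set, and with the mean of both, the low signal raised to the floor, its ratio was 0.09. Nfib gave 3303 and 2918 at 1371202_a_at (-0.18) and 1780 and 1559 at 1388167_at (-0.19). The 2 Nfib ratios were alike and each was smaller than the probe noise. A further Nfib probe set did not reach the floor on either array (39.2 and 40.5).

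Over the 5 compared members (Sox2, Sox4, Nfia, Nfib and Nfix), all 5 log2 ratios were below 0, as were 52.1% of all 8261 compared genes. Their median was -0.41, beside -0.017 over all compared genes. Only Nfia was at least 1.5-fold lower, as were 5.46% of all compared genes, and none was at least 1.5-fold higher (5.25% of all). No member was 2-fold lower (1.42% of all) or 2-fold higher (1.5% of all). Among the 13 compared probe sets of these genes, 12 had a ratio below 0 against 52.4% of all compared probe sets, and 2 were at least 1.5-fold lower against 5.79%. Probe sets of 1 gene share their transcript, so these are not 13 separate observations. The members were chosen with earlier results of these data known, so these contrasts with all compared genes are not an independent check.

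**Figure D2:**
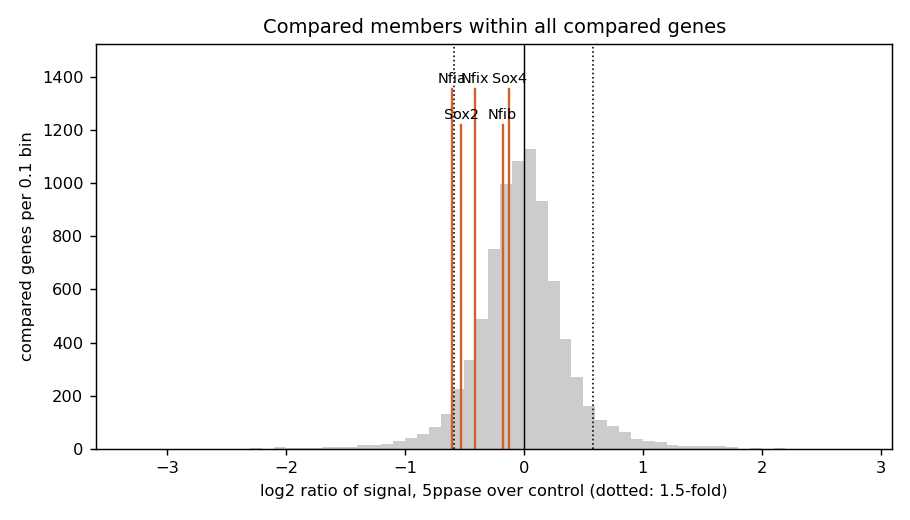
Histogram of the log2 ratio (5ppase over control) of all 8261 compared genes, as genes per 0.1 bin, with the 5 compared members as vertical lines and 1.5-fold as dotted lines. All 5 lie left of 0, from -0.61 for Nfia to -0.12 for Sox4, and only Nfia passes the 1.5-fold line.

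Likeness to Nfia, the member with the lowest ratio, was taken as the absolute difference of log2 ratios over these 2 arrays. The nearest genes were Lrp4 (977 and 641), Fmc1 (1069 and 702) and Rsf1 (459 and 301), each at a log2 ratio of -0.61. With 2 arrays this says little, since 167 compared genes lay within 0.05 of Nfia. No compared member had a positive ratio.

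Among 14 other Sox genes, 10 were on the array and 7 of these were under the floor on both arrays. Only Sox6, which in mouse restrains oligodendrocyte differentiation and works with Sox9 in cartilage, was compared, with a control signal of 849, a 5ppase signal of 563 and a log2 ratio of -0.59, and with 86.9 and 74.6 at a dimmer probe set. Sox21 (154 and 109) and Sox13 (104 and 68.3) lay above the floor on both arrays but under the brightness minimum, and are named after their values were seen. Nfic, the fourth nuclear factor I gene, also named after its value was seen, gave 774 and 729 (-0.08). Sox6 was thus within the range of Sox2 and Nfia, and Nfic was closer to Nfib.

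Of 27 other regulators of glial lineages, 24 were on the array and 14 were compared, with 9 ratios below 0 and 5 above, and a median of -0.12. Meis2, a homeodomain factor, gave 681 and 200 (log2 ratio -1.77), and the POU factor Pou3f3 gave 1866 and 803 (-1.22). In the opposite direction the zinc finger repressor Zeb2, which in mouse promotes myelination, gave 568 and 1360 (1.26), with 324 and 568 at a second probe set (0.81). Gli2, an effector of Hedgehog signalling, gave 183 and 296 (0.69). These 4 were the only compared genes of the list past 1.5-fold, 2 each way, so this list had both signs among its largest differences. Over all compared genes, 5.46% were at least 1.5-fold lower and 5.25% higher.

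Of 22 helix-loop-helix and Id factors, 19 were on the array and 10 were compared, none of them past 1.5-fold. Of all compared genes, 5.46% were at least 1.5-fold lower and 5.25% at least 1.5-fold higher. The Notch target Hes1 gave 2834 and 1998 (log2 ratio -0.50), whereas Hey1, also a Notch target, gave 966 and 1332 (0.46). The inhibitors Id1 (9347 and 8046, -0.22) and Id4 (1476 and 1700, 0.20) differed little, and the 4 compared probe sets of Id4 did not share a sign, from -0.32 to 0.59. Here 6 ratios were below 0 and 4 above, with a median of -0.05, and 52.1% of all compared genes had a ratio below 0.

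Genes known to be switched on by Nfia and Sox9 together in mouse and chick spinal cord were followed as well. Apcdd1, a Wnt inhibitor, gave 771 and 383 (log2 ratio -1.01). Zcchc24 was at 1578 and 1745 (0.15), whereas a second probe set read 401 and 270 (-0.57). Mmd2, the remaining gene, did not reach the floor (11.3 and 10.5) and is named because the list has only 3 genes. One gene was thus lower at its only probe set, and the probe sets of the other compared gene disagreed.

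Of 24 astrocyte genes, 23 were on the array and 16 were compared, with 10 ratios below 0 and 6 above. Of the 16, 7 were at least 1.5-fold lower (5.46% of all compared genes were) and 1 at least 1.5-fold higher (5.25% of all). Fabp7, the brain fatty acid binding protein, and Gfap, the astrocyte filament protein, had log2 ratios of -2.01 and -1.24, and those of the end-foot protein Mlc1 and the sodium pump subunit Atp1b2 were -1.30 and -1.19. The 6 genes above 0 are named after their values were seen. Slc4a4 (0.65, and 0.95 at a second probe set) and Cd44 (0.57, and 0.55) were higher in 5ppase. S100b (0.05), Gja1 (0.07, and 1.04 at a dimmer probe set), Cst3 (0.07) and Vim (0.12) were near equal at their brightest probe sets. The list median was -0.28. It was 0.55 with second brightest probe sets, over the 5 genes that could be compared that way. The largest ratios among the compared genes of this list were more than 2-fold, beyond that of any compared member. Aqp4, given after its values were seen, was not compared. Its signal was 432 in control and 25.1 in 5ppase, under the floor, so at least 6.97-fold lower. Dimmer probe sets of Aqp4 lay under the floor on both arrays (14.3 and 32.6, 5.6 and 23.7).

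Of 18 neural progenitor genes, 15 were on the array and 13 were compared. Of these, 10 had a ratio below 0 and 3 above, and the median was -0.46. At least 1.5-fold lower were 4 (5.46% of all compared genes were), and 0 were at least 1.5-fold higher (5.25% of all). Ttyh1, a membrane protein of progenitors, gave 1050 and 312 (log2 ratio -1.75) and 591 and 172 at a second probe set (-1.78). The receptor phosphatase Ptprz1 gave 977 and 323 (-1.60), the membrane glycoprotein Gpm6a 601 and 316 (-0.93) and the receptor Notch1 644 and 396 (-0.70, and -0.88 at a second probe set). Sox2 is a marker of the same cells and is not counted in this list. The homeodomain factors Lhx2 and Pax6 stand both here and among the glial regulators.

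In the oligodendrocyte lineage list, where Sox10 and the Olig factors act, 20 of 23 genes were on the array, 10 were under the floor on both arrays and only 3 were compared. The proteoglycan Cspg4 gave 262 and 629 (log2 ratio 1.27), the receptor Pdgfra gave 1018 and 644 (-0.66) and the phosphodiesterase Cnp gave 996 and 737 (-0.43). Cspg4 and Pdgfra also mark pericytes and fibroblasts. The list median was -0.43. Among 13 Schwann and neural crest genes, 10 were on the array and 5 were compared (median -0.26): the BMP and Wnt antagonist Sostdc1 (148 and 273, 0.89) was higher in 5ppase, while the early response and myelin factor Egr2 (563 and 341, -0.72), the neural crest factor Tfap2a (508 and 416, -0.29) and the myelin protein Pmp22 (9012 and 7505, -0.26) were lower. The probe sets of the fifth, Mitf, disagreed in size (462 and 445, -0.05, and 325 and 135, -1.26); it is named after its values were seen. The list median was 0.21 with a pseudocount and no filter, over 10 genes, and -0.70 over 2 second brightest probe sets.

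The immature neuron list, which bears on Sox4 and Sox11, had 18 genes on the array, 9 of them under the floor on both, and 6 compared. The neuronal tubulin Tubb3 (87.9 and 290, log2 ratio 1.72) and the tubulin regulators Stmn2 (3766 and 11065, 1.55) and Stmn1 (560 and 905, 0.69) were higher in 5ppase and the progenitor factor Tead2 (332 and 200, -0.73) was lower. The list did not go 1 way: the neuronal microtubule protein Map2 (1737 and 1210, -0.52) was lower, Dpysl5, a neuronal protein of growing axons, was at 286 in control and under the floor in 5ppase (6.3, at least 4.61-fold lower), and the remaining compared gene Dpysl3 gave 248 and 274 (0.14). These 3 are named after their values were seen. The median was 0.42, but -0.11 without floor and filter (pseudocount) and -0.02 with the mean of probe sets. It was 0.14 over 5 genes without _x_at and _s_at probe sets. That setting drops Tubb3, whose ratio comes from an _s_at probe set and whose other probe set was under the floor (20.1 and 47.7). The median was 0.69 over 3 genes with the higher floor, and 0.85 for the 1 gene with a compared second brightest probe set. Sox4 itself was near 0 on this scale. The cartilage genes, where Sox9 acts outside the brain, had 1 compared gene of 12 on the array, Col11a1 (18770 and 18213, -0.04).

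Of 12 fibroblast and meningeal genes 9 were compared, with a median of -0.02, 5 ratios below 0 and 4 above. The surface protein Thy1 gave 3311 and 6032 (log2 ratio 0.87), the mesenchymal factor Twist1 gave 1069 and 627 (-0.77), Pdgfra -0.66 and Col1a2 -0.32. No microglial or endothelial gene was compared. The 2 genes of each with the highest control signal were Csf1r (68.8 and 77.5) and Aif1 (56.1 and 71.5) for microglia and Tek (43.6 and 7.30) and Tie1 (29.3 and 36.6) for endothelium.

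**Figure D3:**
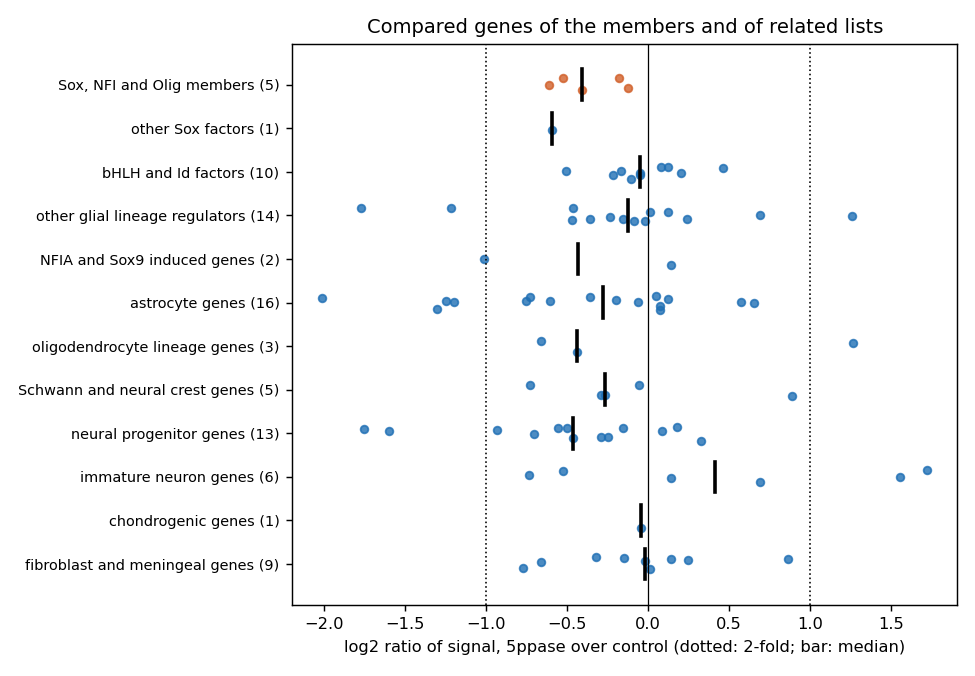
Log2 ratio (5ppase over control) of each compared gene, as points spread vertically for legibility, for the 5 compared members and for each related list, with the number of compared genes in parentheses, the median as a bar and 2-fold as dotted lines. The members lie between -0.61 and -0.12, and the neural progenitor (median -0.46) and astrocyte (-0.28) lists reach past 2-fold lower.

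**Figure D4:**
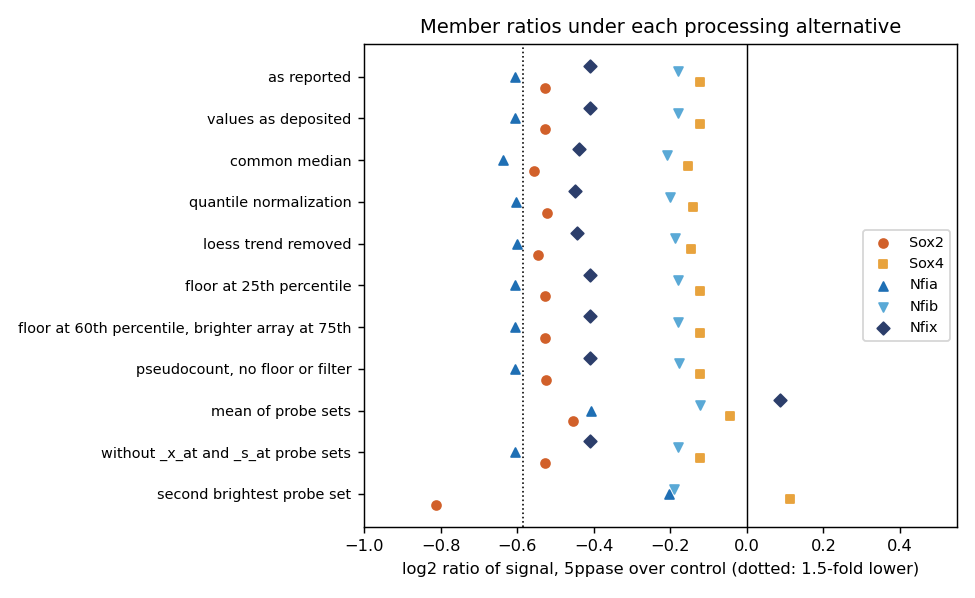
Log2 ratio (5ppase over control) of the 5 compared members as reported and under each of 10 processing alternatives, with 1.5-fold lower as a dotted line. Sox2, Nfia and Nfib stay left of 0 in every setting shown, Sox4 turns positive with the second brightest probe set (0.11) and Nfix with the mean of probe sets (0.09).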

How the data were processed

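The deposited values are MAS5 signal intensities on a linear scale, per the submitters' processing notes. The MAS5 version is not given in the sources used here, nor are its settings. Per the labels' protocols, 6 micrograms of RNeasy-purified total RNA went into biotin-labelled cRNA by the standard Affymetrix procedure. Both deposited arrays have a trimmed mean of 500.2 (2% removed at each end). There was 1 control and 1 5ppase array, each grouped by its title, and no sample column was unused (0).

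Of 31099 probe sets 20832 had 1 symbol in a platform annotation table, 436 had several and 9831 were not listed. Of those with 1 symbol 20764 matched a rat RefSeq gene identifier, and 0 symbols changed. No member symbol occurred in a probe set with several symbols (0). Scaling was to a common trimmed mean, signals below the floor were raised to the floor and the log2 ratio was taken. The probe set of highest mean over both arrays stood for a gene. No test was run. Python 3.11.15, numpy 2.4.6, pandas 2.3.3 and statsmodels 0.14.6 (loess) were used, and the procedure was tested on simulated data.

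The members and the 13 related gene lists (195 symbols, 174 on the array) were chosen with earlier results of these data known. The genes named are every member, the up to 4 compared genes of each list with the largest absolute log2 ratio (or the 2 with the highest control signal if none was compared) and the 3 genes nearest to the lowest member ratio. Alternatives were the deposited values, a common median, quantile normalization, loess (span 0.3), floors at the 25th percentile or the 60th (brighter array at the 75th), a pseudocount of 6.40 with no floor, the mean of probe sets, no _x_at or _s_at probe sets, and the second brightest probe set.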

Additional observations from a re-analysis of the deposited data

How the results depend on the processing

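Of the 5 compared members, Sox2 (-0.81 to -0.45), Nfia (-0.64 to -0.20) and Nfib (-0.21 to -0.12) had log2 ratios below 0 as reported and under each of the 10 alternatives. Sox4 ran from -0.15 to 0.11, positive with the second brightest probe set only. Nfix ran from -0.45 to 0.09, positive with the mean of its probe sets only, and has no second probe set that could be compared. The member median was -0.41 as reported and ran from -0.45 to -0.12, the latter with the mean of probe sets, which also left 0 members at least 1.5-fold lower in place of 1. With the mean of probe sets 4.36% of all compared genes were at least 1.5-fold lower. With a pseudocount and no filter 9 members were compared, of which 3 were at least 1.5-fold lower (Nfia, Olig1 at -0.68 and Sox10 at -1.48). In that setting 12.6% of all 14218 genes were at least 1.5-fold lower. The signals of Olig1 and Sox10 were under the floor on both arrays. The scalings moved the median of all compared genes to between -0.048 and -0.0043 and changed the sign of no compared member. With 1 array per group no replicate could be left out. No paired analysis was possible because each group has 1 array. Signal near background limits what can be said of Sox10, Sox11, Olig1 and Olig2, and having only 2 arrays limits the precision of each ratio.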

Other observations

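A few regulators outside the rule for named genes, chosen after their values were seen, had low signals on both arrays that lay on either side of the floor of 62.0. Nkx2-2, an oligodendrocyte lineage factor, gave 81.7 in control and 29.4 in 5ppase. Rfx4, a factor of neural progenitors, gave 66.9 and 1.0. Neurod2, a neuronal helix-loop-helix factor, gave 61.1 and 129.3. The claudin Cldn11, a tight junction gene in the oligodendrocyte lineage list, was bright in control at 1371 and under the floor in 5ppase at 47.2, at least 22.1-fold lower. A dimmer probe set of Cldn11 gave 78.0 and 22.2. Cldn11 was therefore not among the 3 compared genes of that list, and the list median leaves it out.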
